A study of Mus musculus with 4 samples.

Results

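The cytoplasmic ribosome is built from ribosomal RNA and a fixed set of proteins in a large and a small subunit, each protein in most cases present as a single copy per particle. The genes of these proteins lie scattered over the genome, are transcribed at high rates in nearly every cell, and many of their mRNAs begin with a short pyrimidine run through which mTORC1 signalling sets their translation. Fat tissue is a mixture of lipid-filled adipocytes, vessels, macrophages and supporting cells, all of which make ribosomes.

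The genes described here were the protein-coding rows whose symbol begins with Rpl or Rps followed by a number, with an optional letter, together with Rpsa, Rplp0, Rplp1 and Rplp2, and without the S6 kinase genes. The rule took 86 of the 39179 genes of the table, 51 of the large and 35 of the small subunit, by name alone and with no measured value. They lay on 19 chromosomes, with at most 14 on any of them. Of the 86, 84 had a mean normalized count of 10 or more and were tested, and Rpl10l and Rpl39l were not.

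Polyadenylated RNA of epididymal white adipose tissue, the fat pad next to the epididymis in male mice, was read in 4 libraries, all from animals on a mixed genetic background, 2 labelled WT (Nck2+/+) and 2 labelled Nck2 KO (Nck2-/-, with the genotype given as Nck2 mutant). Nck2 encodes an adaptor protein that connects phosphotyrosine signals to the actin cytoskeleton. Ages, whether animals were pooled, how the mutation was made and which part of the gene it alters are not stated in the sources at hand, and nothing says that replicates came from separate animals, so p-values measure the spread between these libraries, which may be technical.

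The libraries held 31831904 to 37980391 reads assigned to genes. Nck2 itself had 1279 and 1667 normalized counts in WT replicates 1 and 2, against 1076 and 947 in KO replicates 1 and 2, a difference that missed the threshold (limma, adjusted p = 0.0509). Adipocyte markers were present in every library, with a summed normalized count of 890094 and 593332 in WT and 2154905 and 2462435 in KO, and 14 of 18 were higher in KO (limma). Epididymis and male tract markers summed to 498419 and 418476 in WT and to 145 and 131 in KO, where 7 were at 0. Smooth muscle markers fell from 541669 and 715383 to 30918 and 37426, with 10 of 11 lower, and all 11 macrophage markers were higher (28920 and 28244 against 61833 and 57498), as were 7 of 9 endothelial and 1 of 9 lymphocyte markers. The KO libraries therefore differed from the WT libraries in the markers of several cell types, and the part of this in the values below was not tested. In bulk tissue, fewer cells of a type and less RNA per cell cannot be told apart.

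As a sum, the ribosomal protein genes were nearly level between genotypes on the authors' size-factor scale. Their normalized counts added up to 488483 and 484086 in WT, against 476297 and 478865 in KO. The KO sums were thus below the WT sums, and the KO mean (477581 ± 1816, SD, n = 2) was 98.2% of the WT mean (486285 ± 3110, SD, n = 2). An exact two-sided permutation test gave p = 0.333, the smallest value that 2 libraries against 2 allow. The large-subunit sum was 97.7% and the small-subunit sum 98.9% of WT, and large-subunit reads outnumbered small-subunit reads 1.436- and 1.427-fold in WT and 1.413- and 1.417-fold in KO.

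As a share of all reads assigned to genes, the same genes stood lower in KO. They took 1.506% (95% exact Clopper-Pearson interval 1.502 to 1.510) and 1.528% (1.524 to 1.532) of the reads in the WT libraries, and 1.338% (1.335 to 1.342) and 1.267% (1.263 to 1.270) in the KO libraries. These intervals cover counting error only, since reads that carry no molecular identifier can repeat a molecule. The group means were 1.517% ± 0.0153 and 1.303% ± 0.0507 (SD, n = 2 each; exact permutation p = 0.333, again the smallest possible). The 100 genes with the most reads outside the family took 25.1% and 23.9% of the WT reads and 27.4% and 29.1% of the KO reads. The total was then limited to protein-coding genes without these 100. Of it, the ribosomal protein share was 2.03% in both WT libraries and 1.86% and 1.81% in the KO libraries. The share thus remained lower in KO, by a smaller ratio.

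**Figure D1:**
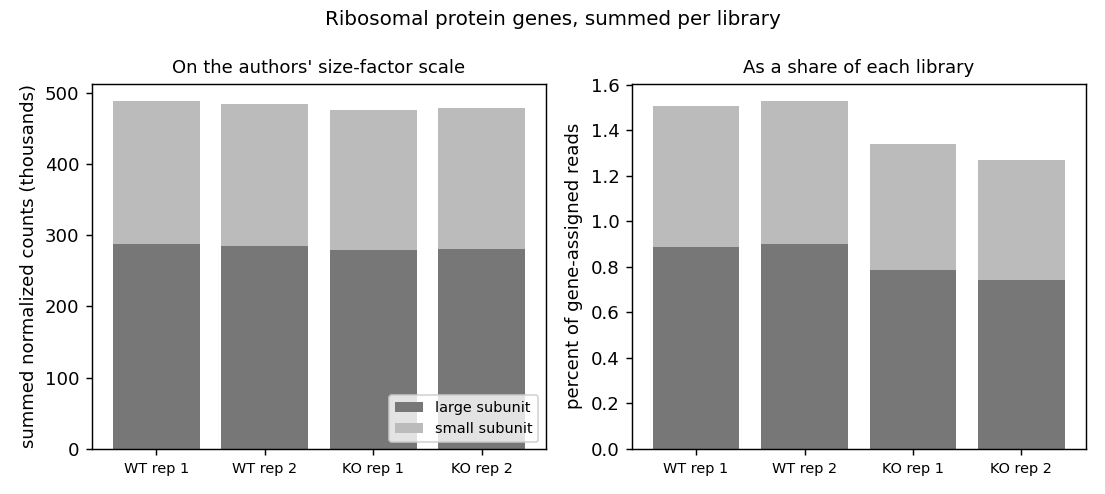
Summed level of the 86 ribosomal protein genes in each library, as normalized counts (left) and as a percent of gene-assigned reads (right), with the large and small subunit stacked. The left bars range from 476297 to 488483 normalized counts, while the right bars fall from 1.506% and 1.528% in WT to 1.338% and 1.267% in KO.

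Gene by gene, 9 of the 84 tested members were higher and 10 were lower in KO in limma's test at a Benjamini-Hochberg adjusted p under 0.05 over all 16710 genes tested, and 65 did not pass. These are 10.7% and 11.9% of the members. Over all genes tested, 22.4% were higher and 24.4% lower by the same rule. Most members have high counts, and among the 6617 genes with a mean of 1000 or more the shares were 33.9% higher and 19.2% lower, against 9 higher and 8 lower of the 78 members at that level. In the same limma test 28 of the 84 members had an unadjusted p under 0.05, beside 9241 of all 16710 genes. At a mean of 1000 or more these were 26 of 78 members and 4077 of 6617 genes.

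Differences were also small in size. The fold change of a gene is the KO mean minus the WT mean of log2(normalized count + 1). Its median over the members was -0.05 (quartiles -0.15 and 0.08), beside -0.01 over all genes tested. Over genes with a mean of 1000 or more the median was 0.11, and over the members at that level it was -0.05. The median absolute fold change was 0.12 for members, 0.45 for all genes and 0.33 for genes with a mean of 1000 or more. A fold change within 0.25 of 0 was seen in 64 of 84 members (76.2%) and in 32.6% of all genes. The median was -0.06 over the large-subunit and -0.01 over the small-subunit genes, with 5 higher and 7 lower of 49 and 4 higher and 3 lower of 35. Replicates were close to each other, with a median absolute gap of 0.04 on the log2 scale in WT and 0.04 in KO. The gaps were 0.14 and 0.15 over all genes, and 0.09 and 0.10 over genes with a mean of 1000 or more. Both KO libraries lay above both WT libraries for 23 members and below for 41, which is 27.4% and 48.8% of those tested. Over all genes 38.9% and 40.6% did so. Genes with a mean of 1000 or more leaned the other way, with 3393 above and 2135 below of 6617. Of the 78 members at that level, 23 lay above and 38 below.

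**Figure D2:**
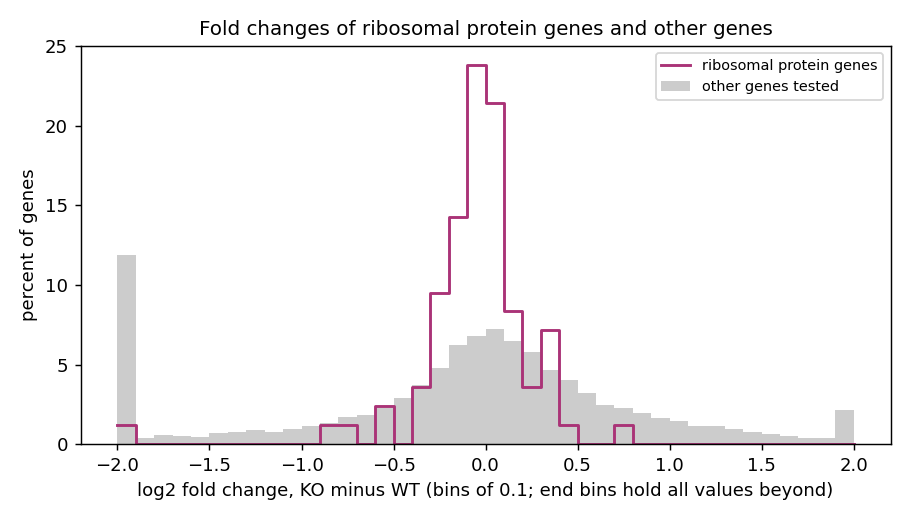
Percent of genes in bins of log2 fold change (KO minus WT, bins of 0.1) for the 84 tested ribosomal protein genes (line) and all other tested genes (grey bars). The members are concentrated around 0, with 64 of 84 within 0.25, and the end bins hold all values beyond.

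**Figure D3:**
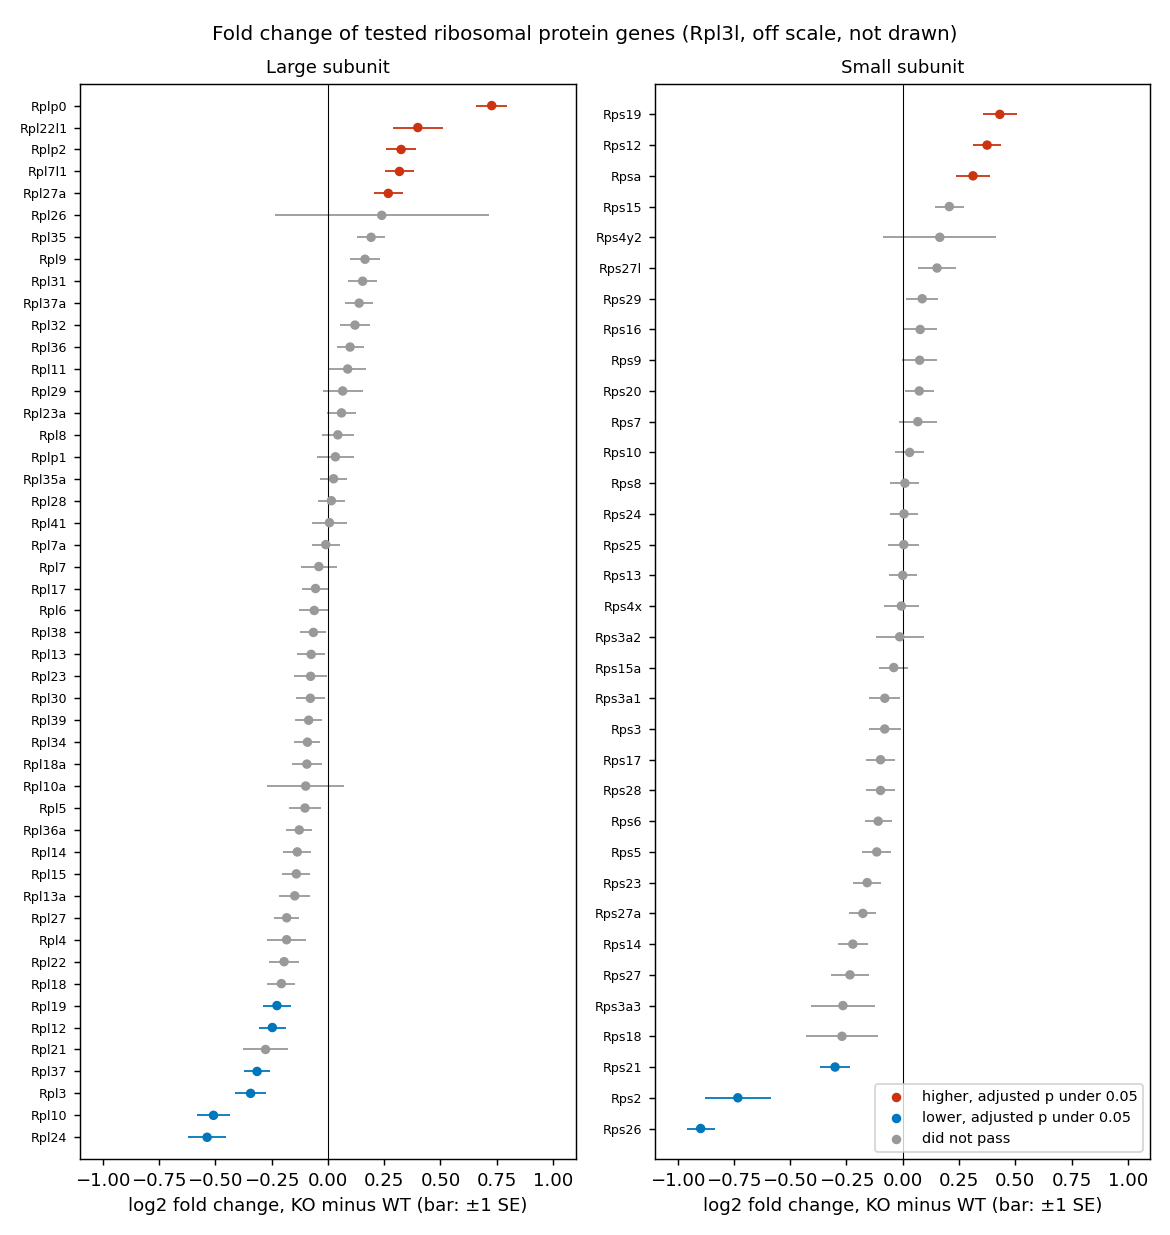
Log2 fold change (KO minus WT) of the tested ribosomal protein genes described here with ±1 SE from limma, by subunit, coloured by call. Coloured genes passed the adjusted p threshold, and Rplp0 (0.73) and Rps26 (-0.90) lie farthest from 0, apart from Rpl3l (-3.54), which is off the scale.

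The split between higher and lower members depended on how libraries were scaled. With counts scaled by each library's total of gene-assigned reads in place of the authors' size factors, 2 members were higher and 36 lower, while 15.0% of all genes were higher and 33.1% lower. Under it Rplp0 (0.53) and Rps19 (0.24) were still called higher, the other 7 rises did not pass (0.07 for Rpl27a to 0.21 for Rpl22l1), and the 10 falls all passed. This scaling moved the median of all genes to -0.20 and that of the members to -0.24. Relative to all genes the members thus stood at -0.04 under both scalings. Genes with a mean of 1000 or more had a median of 0.11 on the authors' scale and -0.08 with this scaling, above the members in both. edgeR's quasi-likelihood test on the recovered reads called 9 members higher and 11 lower, beside 21.0% and 24.4% of all genes, and all 19 limma calls had the same direction and passed there. The authors' deposited table held 9 members higher and 9 lower at an adjusted p under 0.05. The number of calls also rested on having all 4 libraries. Without WT replicate 1 there were 1 higher and 2 lower, without KO replicate 1 there were 5 and 5, and without KO replicate 2 there were 1 and 5. Without WT replicate 2 limma called 0 higher and 2 lower, where 7 and 8 had an unadjusted p under 0.05. All 19 members kept their direction in each of these 4 fits, and only Rps26 kept its call in all of them. Shares of all genes called are not given here for these fits or for the deposited table, so their counts describe the members only. Whether calls fell alike over the whole table was not tested. The adjusted p printed second below is the highest over the 4 fits that leave out a library.

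The stalk is the flexible arm of the large subunit that recruits the translation GTPases. Rplp0, its anchor on the ribosome, counted 6362 and 6165 in WT, against 10161 and 10584 in KO. Counted without near copies, this was the greatest rise among the members, by 0.73 (SE 0.07, limma adjusted p = 0.0028, and 0.0548 at most with a library left out). Rplp2, one of the paired proteins that extend from Rplp0, rose from 7653 and 7620 to 9531 and 9607 (0.33, SE 0.07, limma adjusted p = 0.0184, and 0.0954 at most). Its partner Rplp1 was at 12234 and 13142 (WT) against 12963 and 12997 (KO), so the groups overlapped (0.03, adjusted p = 0.753). The stalk base protein Rpl12 went the other way and fell by 0.25, from 5113 and 5174 to 4385 and 4287 (limma adjusted p = 0.0307, and 0.124 at most). In the values by library, the KO counts of Rplp0 were clear of the WT counts by far more than the replicates of either group differed, and those of Rplp1 were not.

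Rplp0 has close relatives elsewhere in the genome whose counts differed in the opposite direction. The near copy Gm8730 (chr8:102864845-102865798, GRCm38, minus strand) was at 1758 and 1801 (WT) against 1025 and 1052 (KO), and Gm9625 on chromosome 13 was at 1272 and 1229 against 676 and 811. With these 2 added to it, Rplp0 rose by 0.39 (limma adjusted p = 0.0158) in place of 0.73, less than Rps19 (0.43) and Rpl22l1 (0.40) with their copies added. The coding sequence of Rplp0 and Gm8730 differed at 12 of 954 aligned bases. The stretch shown, coding bases 388 to 447, is where their difference is visible over the length of about one read, and capitals mark the bases that differ.
Rplp0: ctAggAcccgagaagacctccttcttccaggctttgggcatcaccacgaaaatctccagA
Gm8730: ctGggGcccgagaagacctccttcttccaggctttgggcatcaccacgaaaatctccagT

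Near copies matter for this family because reads of 50 bases can match a gene and its retrocopies equally well, and no source used here says how such reads were counted. A near copy was taken as another gene that shared at least 50% of its words of 25 bases with the member's transcripts. By this rule 67 members had 280 near copies, with up to 24 for Rpl21. The median member had 76.9% of its words of 50 bases to itself, 8 members had under 50%, and the lowest was Rps3a2 at 9.83%. In sum the copies held little, from 6.02% to 6.63% of the counts of members and copies together, and the KO sum with copies was 98.2% of WT, as without them. With copies added, 9 members were higher and 9 lower, and 17 of the 19 calls were kept. The calls lost were those of Rps2 and Rpl19 (limma adjusted p = 0.128 and 0.0524). This addition was chosen after the data were seen, and the share of all genes called with it is not given here.

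In a few members replicates of a genotype stood apart. Gaps over 0.3 on the log2 scale were seen between the WT libraries in Rpl26, Rpl3l, Rps18 and Rps2, and between the KO libraries in Rpl10a, Rpl26, Rpl3l and Rps4y2. Rpl26, a protein at the mouth of the peptide exit tunnel, was at 6140 and 2509 (WT) against 3877 and 5538 (KO), so replicates of a genotype differed far more than the genotypes. Its pseudogene Gm15772 (chr5:3236431-3236868, GRCm38) was at 313 and 3515 (WT) against 1718 and 296 (KO), high where Rpl26 was low. With its copies added, Rpl26 came to 6460, 6035, 5601 and 5839, and its fold change went from 0.24 (SE 0.47, limma adjusted p = 0.702) to -0.13 (SE 0.07, adjusted p = 0.211). The 438 coding bases of Rpl26 and the pseudogene differed at 2 positions. Coding bases 118 to 177 hold one of them, in capitals.
Rpl26: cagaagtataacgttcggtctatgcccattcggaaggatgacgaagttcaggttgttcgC
Gm15772: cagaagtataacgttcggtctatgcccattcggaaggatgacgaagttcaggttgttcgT

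Rps18, a small-subunit head protein, likewise ran opposite to a copy across libraries. It was at 3806 and 5142 (WT) against 3570 and 3771 (KO), with its copy Gm10260 on chromosome 13 at 1929 and 960 against 1847 and 1848. The sums with copies were 5735, 6105, 5419 and 5619, a narrower range than that of Rps18 alone. For Rps27 the copy held most of the counts. Rps27 was at 1262 and 1354 (WT) against 1160 and 1064 (KO), while Gm9846 (chr9:114982366-114982739, GRCm38, minus strand) was at 5291 and 5575 against 4620 and 4557, and copies made up 80.5% of their sum. The 255 coding bases of Rps27 occur in Gm9846 with 0 differences, so their first 60 bases are the same in both.
Rps27: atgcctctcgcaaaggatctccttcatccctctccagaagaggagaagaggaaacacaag
Gm9846: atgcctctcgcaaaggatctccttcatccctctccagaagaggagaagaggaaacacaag

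**Figure D4:**
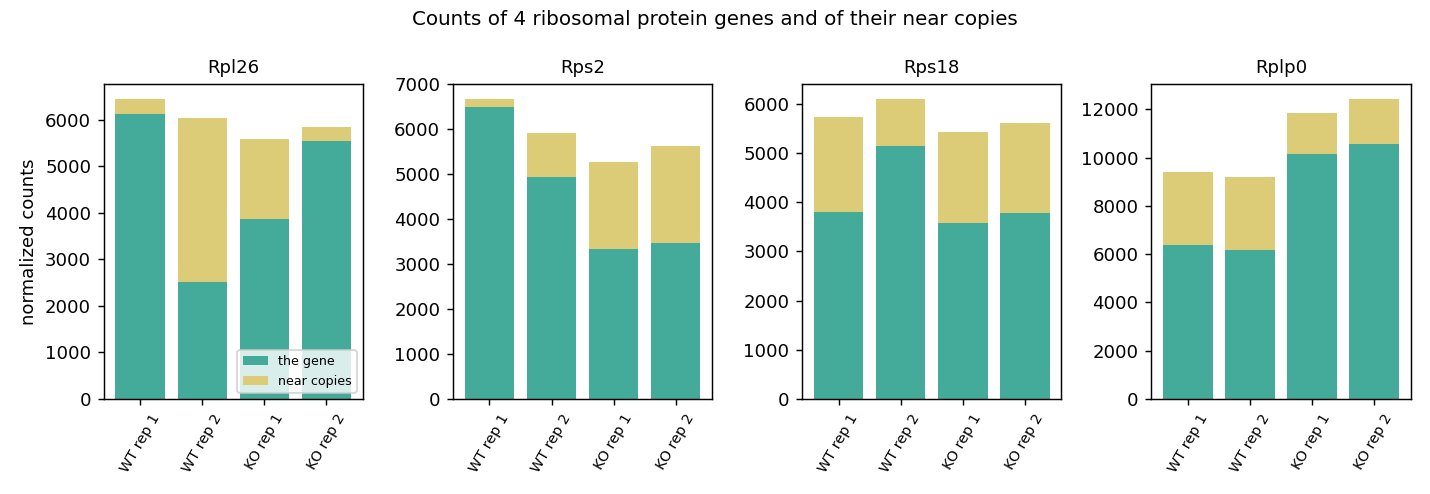
Normalized counts of Rpl26, Rps2, Rps18 and Rplp0 (lower bars) with those of their near copies stacked on top, in each library. For Rpl26 the gene alone ranges from 2509 to 6140 while the sum stays between 5601 and 6460.

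In the small subunit Rps26 had the greatest fall. Rps26, which contacts mRNA near its exit from the ribosome, was at 6762 and 6936 (WT) against 3726 and 3628 (KO). It fell by 0.90 (SE 0.06, limma adjusted p = 0.0015, and 0.0427 at most with a library left out). With its near copies added it fell by 0.90 as well (adjusted p = 0.0015). Its copy Rps26-ps1 differs from it at 2 of 348 coding bases, one of which is among the first 60, shown with the differing base in capitals because Rps26 was the call kept in every fit with a library left out.
Rps26: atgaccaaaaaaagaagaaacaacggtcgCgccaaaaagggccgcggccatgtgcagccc
Rps26-ps1: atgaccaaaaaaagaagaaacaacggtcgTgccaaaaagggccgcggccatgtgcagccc

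Rps2, at the entry of the mRNA channel, was at 6478 and 4938 (WT) against 3341 and 3468 (KO) (-0.73, SE 0.15, limma adjusted p = 0.0182, and 0.0692 at most). The fall depended on how its copies are treated. Rps2-ps13 (chrX:52898588-52899469, GRCm38) was at 2.04 and 702 (WT) against 1494 and 1668 (KO), and the sum with copies was 6674, 5901, 5258 and 5614 (-0.21, adjusted p = 0.128). Of the 909 coding bases of Rps2, 882 aligned with Rps2-ps13, and they differ at 7 of these. The alignment held 13 further bases in gaps. Coding bases 25 to 84 hold a pair of the 7 differences, in capitals.
Rps2: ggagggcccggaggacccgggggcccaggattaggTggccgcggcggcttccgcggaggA
Rps2-ps13: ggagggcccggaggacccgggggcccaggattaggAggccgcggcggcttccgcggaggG

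Rpsa, a protein on the solvent side of the small subunit that is also known as a laminin receptor, was at 9559 and 8979 (WT) against 11344 and 11660 (KO). It rose by 0.31 (SE 0.08, limma adjusted p = 0.0312, and 0.133 at most). Rps15, close to the decoding site, was at 7258 and 7128 against 8400 and 8204 (0.21, adjusted p = 0.0605), with no overlap between groups but short of the threshold. Rps3, another protein of the entry channel, was at 11774 and 11705 (WT) against 11090 and 11119 (KO) (-0.08, adjusted p = 0.394).

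In the head of the small subunit a pair of members rose by similar amounts. Rps19, the protein most often mutated in Diamond-Blackfan anaemia, rose from 4483 and 4164 to 5650 and 6005 (0.43, SE 0.08, limma adjusted p = 0.0128, and 0.0962 at most). Rps12 rose from 6335 and 6233 to 8089 and 8205 (0.37, SE 0.06, adjusted p = 0.0118, and 0.0815 at most). For both the gap between genotypes exceeded the gap between replicates several times over. Rps21 fell by 0.30, from 6209 and 6529 to 5109 and 5230 (limma adjusted p = 0.0234, and 0.107 at most). Rps6, the substrate of the S6 kinases, was at 5059 and 4910 (WT) against 4594 and 4647 (KO) (-0.11, adjusted p = 0.205). Rps13, Rps25 and Rps24 were the members nearest to no change, with fold changes between -0.0001 and 0.0055 and overlapping groups. Rps24, for example, was at 6450 and 6447 (WT) against 6518 and 6429 (KO).

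In the large subunit Rpl10, Rpl3, Rpl24, Rpl37 and Rpl19 were lower in KO and Rpl27a was higher. Rpl10, which joins the particle late and reaches toward the peptidyl transferase centre, fell from 11989 and 11829 to 8659 and 8102 (-0.51, SE 0.08, limma adjusted p = 0.0084, and 0.0797 at most). Rpl3, a core protein near the same centre, fell from 7904 and 7764 to 6352 and 6006 (-0.34, SE 0.07, adjusted p = 0.0183, and 0.101 at most). Rpl24, which forms a bridge to the small subunit, fell from 1041 and 1046 to 683 and 758 (-0.54, SE 0.09, adjusted p = 0.00998, and 0.104 at most). The groups did not overlap in any of these 3, and the KO replicates of Rpl24 differed most. Rpl37 fell by 0.31 (limma adjusted p = 0.0155, and 0.0880 at most) and Rpl19, another bridge protein, by 0.23 (adjusted p = 0.0424, and 0.149 at most). Rpl27a rose by 0.27, from 4721 and 4685 to 5537 and 5796 (limma adjusted p = 0.0285, and 0.125 at most). Rpl31, the member closest to Nck2 at 4.08 Mb along chromosome 1, did not pass (0.15, adjusted p = 0.117). Rpl4, a protein of the exit tunnel wall and the member with the highest mean count, was at 22205 and 21294 (WT) against 19188 and 19117 (KO) (-0.18, adjusted p = 0.158).

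Rpl5 and Rpl11, which bind the smallest ribosomal RNA and can also bind the ubiquitin ligase Mdm2, did not pass. Rpl5 was at 5731 and 5621 (WT) against 5484 and 5104 (KO) (-0.10, limma adjusted p = 0.288). Rpl11 was at 5117 and 5226 against 5190 and 5822, with overlapping groups (0.09, adjusted p = 0.422). Rps27a, made as a fusion with ubiquitin, was at 5084 and 4925 against 4416 and 4435 (-0.18, adjusted p = 0.0734).

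**Figure D5:**
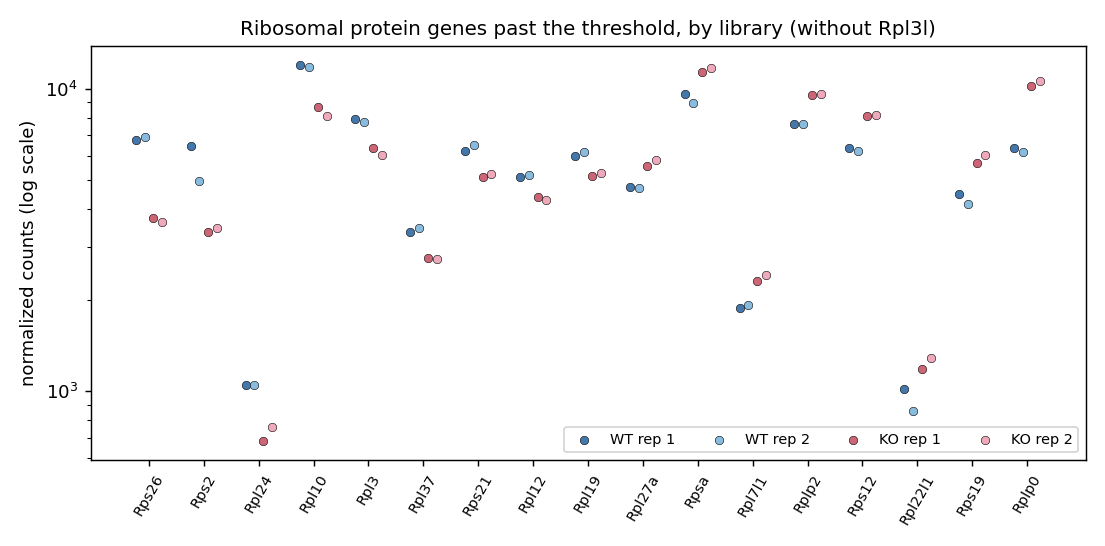
Normalized counts (log axis) in each library of the ribosomal protein genes described here that passed the test, other than Rpl3l, ordered by fold change from Rps26 to Rplp0. In each gene drawn the KO points lie together above or below the WT points.

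Some ribosomal proteins have paralogs that can replace the common form in some tissues. Rpl3l, the striated muscle form of Rpl3, had 276 and 415 normalized counts in WT, against 15.0 and 52.4 in KO. It fell by 3.54 (SE 0.64, limma adjusted p = 0.0144, and 0.161 at most with a library left out), to 9.76% of the WT mean. Rpl3l was the only one of the 19 called members to change by more than 2-fold. The 9 striated muscle markers summed to 13546 and 19511 in WT and to 2136 and 7715 in KO. Singly they went both ways, with fold changes from -5.25 to 6.35, and 1 was higher and 1 lower by the test. Both KO libraries lay above both WT libraries for 3 of them and below for 2. The part of these markers in the Rpl3l values was not tested.

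Rpl22l1, the paralog of Rpl22, rose from 1015 and 856 to 1181 and 1281 (0.40, SE 0.11, limma adjusted p = 0.0452, and 0.173 at most). Rpl22 itself was at 4585 and 4657 (WT) against 4161 and 3920 (KO) (-0.19, adjusted p = 0.0707), with KO below WT in both libraries. Rpl7l1, related to Rpl7, rose from 1873 and 1918 to 2310 and 2417 (0.32, SE 0.06, limma adjusted p = 0.0175, and 0.0949 at most). Rpl7 was at 9860 and 9477 against 9786 and 9035, with overlapping groups (-0.04, adjusted p = 0.705). The difference between a gene and its relative was not tested in either pair.

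Rps27l was at 1886 and 1905 (WT) against 1983 and 2237 (KO) (0.15, limma adjusted p = 0.197), beside -0.23 for Rps27 (adjusted p = 0.0794, or 0.0448 with its copies added). Rps4x, the X-linked form of Rps4, was at 12741 and 12762 against 13077 and 12326 (-0.01, adjusted p = 0.954). The row named Rps4y2 (ENSMUSG00000063171, on chromosome 6 and now called Rps4l) was at 507 and 498 (WT) against 442 and 717 (KO) (0.16, adjusted p = 0.618). Its KO replicates differed more than the genotypes.

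The testis forms were close to absent. Rpl10l was at 5.09 and 9.30 (WT) against 0.937 and 0 (KO), and Rpl39l at 2.04 and 9.30 against 2.81 and 0, beside 3999 and 3861 against 3697 and 3711 for Rpl39 (-0.09, limma adjusted p = 0.296). Both were under the minimum mean and have no test. Testis germ cell markers summed to 505 and 2589 in WT and to 43.1 and 157 in KO, and their part in these low counts was not tested.

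Levels per kilobase of exon varied widely between members. The highest mean normalized counts per kilobase were those of Rplp1 (25719), Rps15 (12297), Rpl4 (10190) and Rps3a1 (9034), and the lowest among members with a mean of 50 or more were Rpl3l (115), Rpl24 (119) and Rps3a3 (388). The median over all members was 2537. Lengths are the union of all annotated exons, retained introns included, which lowers the value of a gene with long alternative exons, and Rpl24 has 7440 bases by this measure. Rps3a3 was at 347 and 326 (WT) against 307 and 254 (KO) (-0.27, limma adjusted p = 0.190). Rps3a1 was at 9186 and 8952 against 8752 and 8413 (-0.08, adjusted p = 0.391).

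The start sites of the family carry features known for ribosomal protein genes. Of the 84 tested members, 61 matched an entry of RefSeq's promoter table (GRCm38.p6), which gives 250 bases before and 50 after the start. Where a gene has several listed starts, only the most upstream was taken, for members and for all promoters alike. Which start is used most in this tissue was not tested. CCGGAA, the core of ETS factor sites, occurred on either strand in 31 of them (50.8%), beside 15.2% of all 27025 promoters. AAGATGG, a YY1 core, occurred on either strand in 10 (16.4% beside 6.46%). The pyrimidine run CTTTCC occurred on the gene's strand in 20 (32.8% beside 14.1%) and CTCTTTCC, which contains it, in 7 (11.5% beside 1.47%). A C at the listed start followed by at least 4 pyrimidines was found in 12 (19.7% beside 2.48%). A match describes these letters only and is no sign of a bound factor.

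Shown are the 55 bases before and 25 after the start for a pair of common members with a pyrimidine run at the start, Rpl38 (chr11:114668525-114668604, plus strand) and Rpl28 (chr7:4792910-4792989, plus strand), and for Rpl3l (chr17:24727771-24727850, plus strand), the fall of greatest size, whose 300-base entry held none of the 4 motifs. Other members, such as Rps12, Rpl24 and Rps13, also had an entry with none of these motifs. Capitals mark motif matches.
Rpl38: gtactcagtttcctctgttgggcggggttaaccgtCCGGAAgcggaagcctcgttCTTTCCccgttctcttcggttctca
Rpl28: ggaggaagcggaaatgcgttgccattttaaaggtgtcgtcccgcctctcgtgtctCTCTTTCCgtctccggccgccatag
Rpl3l: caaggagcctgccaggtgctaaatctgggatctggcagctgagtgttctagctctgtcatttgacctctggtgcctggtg

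Ribosomal protein genes that the naming rule leaves out were measured as well. Fau, a fusion of a ubiquitin-like protein with a small-subunit protein, was at 4476 and 4353 (WT) against 3762 and 3798 (KO) and fell by 0.22 (limma adjusted p = 0.0388). Rpl36al fell from 1932 and 1908 to 1359 and 1438 (-0.46, adjusted p = 0.0076). Gnb2l1, the scaffold protein Rack1, did not pass (0.03, adjusted p = 0.727).

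Other parts of the translation machinery had medians slightly above 0 on the authors' scale and below 0 under scaling by total reads, which moved all genes by about the same amount. Genes listed as elongation factors or as other mRNAs with a pyrimidine start had a median of 0.03 (-0.16 when scaled by total reads). The list was set by gene symbol, and whether its genes have such a start was not checked. Of 21, 4 were higher and 1 lower (19.0% and 4.76%). Beside these stand 22.4% and 24.4% of all genes, and 33.9% and 19.2% of genes with a mean of 1000 or more. These background shares also apply to the lists that follow. The 4 higher genes included Nap1l1, a histone chaperone (1.59), Vim, the intermediate filament of mesenchymal cells (1.59), Pabpc1, the poly(A)-binding protein (0.65), and Eef1e1 (0.82). Initiation factors had a median of 0.10 (-0.09 by total reads), with 7 of 37 higher, Eif1a by 0.91 and Eif2b3 by 0.70 among them, and 4 lower, such as Eif3i (-0.49) and Eif1ax (-0.39), or 18.9% and 10.8%. Ribosome biogenesis factors had a median of 0.07 (-0.12 by total reads), with 8 of 56 higher and 2 lower (14.3% and 3.57%). Ltv1 (0.67) and Sbds (0.67), which act in the maturation of the small and the large subunit, and Gnl3 (0.51) and Wdr75 (0.48) were among those higher. RNA polymerase I genes had a median of 0.08 (-0.11 by total reads), with Polr1a higher (0.36) and Taf1a (-1.29) and Taf1c (-1.01) lower of 15 (6.67% and 13.3%).

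Among 31 tested genes of mTORC1 and S6 kinase signalling, 8 were higher and 5 lower (median 0.09, or -0.10 by total reads). These are 25.8% and 16.1%, beside 22.4% and 24.4% of all genes. Of genes with a mean of 1000 or more, 33.9% were higher and 19.2% lower. Deptor, an inhibitor that binds mTOR, rose from 2410 and 1916 to 8509 and 9958 (2.10, SE 0.15, limma adjusted p = 0.0016). Eif4ebp1, the translation repressor that mTORC1 phosphorylates, rose from 3787 and 2808 to 8263 and 8797 (1.39, SE 0.16, adjusted p = 0.0045). Rps6ka3, a kinase of the RSK family, rose by 1.22 (adjusted p = 0.0034), and Rragb, a GTPase that recruits mTORC1 to lysosomes, fell by 3.37 (adjusted p = 0.0022). The adipocyte, macrophage, male tract and smooth muscle markers given above moved between the same libraries, and their part in these values was not tested.

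Mitochondrial ribosomal proteins, which form the separate ribosome of that organelle, had 26 of 75 tested genes higher and 2 lower, 34.7% and 2.67% beside 22.4% and 24.4% of all genes. Their median fold change was 0.19, or -0.01 with scaling by total reads. Mrpl10 rose from 1607 and 1504 to 2044 and 2209 (0.45, SE 0.08, limma adjusted p = 0.0119), and Mrpl45 (0.41), Mrps9 (0.58) and Mrpl40 (0.64) were also higher. The difference between the mitochondrial and the cytoplasmic set was not tested.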

How the data were processed

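GRCm38 was the build, and DESeq2 1.4.5, HTSeq 0.5.3, TopHat2 2.0.10 and CASAVA 1.8 are named, without order or role, per the submitters' processing notes. The authors deposited normalized counts per gene, a signal equal to reads divided by a library's size factor, and a comparison table with log2 fold changes and their standard errors, p-values, adjusted p-values and a score for the test statistic. Multiplying by the size factors (0.9815, 1.0748, 1.0673 and 0.8962) gave whole reads for 100% of values within 0.01. Replicates differed beyond sampling noise over the members (chi-square per degree of freedom 27.7 in WT and 11.7 in KO). No source used here states whether strand was counted, so overlapping antisense genes cannot be told apart.

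Genes with a mean of 10 or more were fitted together with limma 3.58.1 (R 4.3.3) with an intensity trend, on log2(normalized count + 1), and Benjamini-Hochberg adjustment at 0.05. The pseudocount understates changes of low genes. edgeR 4.0.16 and DESeq2 1.42.0 were run on the recovered reads. The limma fit was also run on simulated counts, with far fewer changed genes than were called here. Its outcome is not given and is not used as support for the calls. Alternatives were other pseudocounts, filters and scalings, a replicate block, robust moderation and each library left out. Words shared with near copies, gene lengths and coding stretches (longest open reading frame) came from GENCODE M21 transcripts. Members in the text were the 6 greatest rises and falls, levels per kilobase, the 3 nearest 0 and paralogs or roles; Rpl27a, Rpl37, Rps21, Rpl12, Rpl19, Rpl26, Rps18 and Rpl31 were added after their values were seen. The members, lists and markers were chosen with earlier results of these data known. Some single-gene values are not reported here.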

Additional observations from a re-analysis of the deposited data

How the results depend on the processing

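The counts of called members stayed within 1.5 times of 9 higher and 10 lower under both other pseudocounts, either other filter, TMM and upper-quartile scaling, robust moderation, edgeR, DESeq2 and near copies added. Scaling by total reads gave 2 higher and 36 lower, and the replicate block 3 and 5. The share of all genes called with the block is not given here, so its counts describe the members only. The shared numbers do not pair these samples (correlation of deviations -0.009 over all genes and 0.107 over the members). Leaving out 1 library gave 0 to 5 higher and 2 to 5 lower, in fits that let the remaining library of a group borrow the spread of the other genotype. The members' median was -0.077 with upper-quartile scaling and -0.24 with total reads. The log2 ratio of their share of reads, -0.22, was -0.15 over protein-coding genes without the 100 top genes and -0.026 for summed normalized counts. Signs reversed for 11 of the members described, none of them past the threshold in these fits or in the reported one. Rps25 and Rps24 came to -0.025 and -0.024 with upper-quartile scaling, -0.015 and -0.014 with TMM, -0.015 and -0.014 with edgeR, -0.0048 and -0.0043 with DESeq2, and -0.19 and -0.19 with total reads, which also reversed Rplp1 (-0.16), Rpl11 (-0.11), Rps27l (-0.042), Rps4y2 (-0.030) and Rpl31 (-0.040). Rpl26 reversed with near copies added (-0.13). Over the fits that leave out 1 library, Rplp1 ran from -0.018 to 0.085, Rps13 from -0.028 to 0.028, Rps25 from -0.045 to 0.054, Rps24 from -0.0043 to 0.015, Rpl7 from -0.097 to 0.018, Rps4x from -0.049 to 0.036, Rpl26 from -0.41 to 0.88 and Rps4y2 from -0.18 to 0.51. The cause of these changes was not tested, apart from the fewer samples of the fits without a library.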
